A study of Zea mays with 48 samples.

Results

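The leaf transcriptome of the F1 between the maize inbreds B73 and B75 was compared with that of its parents while all 3 carried spider mites. The comparison used 12 of the 48 libraries of the series, which were chosen by their labels: 4 of the infested F1, 4 of infested B73 (replicates 5 to 8, which the design text assigns to the B75 experiment) and 4 of infested B75. In every infested group, 200 adult females of Tetranychus urticae fed for 24 hours on a wax-bounded section of leaf 4 of plants 22 days old. The uninfested F1, B73 and B75 of the same experiment, 12 further libraries with the wax barrier alone, shared the estimate of the spread and served to ask whether a deviation of the F1 was particular to infested leaves. The labels do not say which parent was the mother of the F1, nor how many plants made up a library, so every p-value rests on the spread among these libraries, which may be technical in part. Plants stood in randomised blocks and were harvested together, per the labels' protocols.

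B73 is the inbred whose genome is the maize reference, and B75 is an inbred known for resistance to spider mites. T. urticae, a spider mite, empties leaf mesophyll cells with its stylets, and feeding sets off wound and jasmonate signalling in the leaf. An F1 carries 1 copy of each gene from each parent. If each copy is expressed as it is in its own parent, the F1 lies at the mean of the parental levels, the mid-parent, which is called additive expression. A gene product that acts on both copies, or a difference in the state of the tissue, can move the F1 away from that mean, towards one parent or beyond both, but need not do so.

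The infested libraries held 11.7 to 12.6 M gene counts in the F1, 9.98 to 14.4 M in B73 and 12.3 to 15.4 M in B75. All were counted on the B73 genome, so B75 reads can be lost where the sequences differ. The same share of a gene's B75 reads lost in B75 and in the F1 leaves the F1 at the linear mean of the parents, which is why that mean was used. The first principal component of the 12 libraries held 73.1% of the variance, with the F1 at -5.82 to -4.60, B73 at -92.1 to -84.2 and B75 at 89.3 to 97.0. The second held 10.8% and set the F1, at -42.7 to -36.3, apart from both parents. Infested B73 replicate 7 was the library least like its group, with a median correlation of 0.979 with the others against 0.985 to 0.990 for the other 11 libraries. The identifiers of the genes carry no names in the tables used here, so features are given by identifier and no role is stated for them.

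Few genes of the infested F1 were called different from the mean of their parents. Levels are given as CPM, counts per M counts of the scaled library size, as mean ± SD. A gene is called where its Benjamini-Hochberg adjusted p is under 0.05 over all 22572 genes tested, with edgeR's quasi-likelihood test. Against the linear mid-parent, 765 genes were called, 381 of them higher and 384 lower in the F1. These were 3.39% of the genes tested, 1.69% higher and 1.70% lower. At an unadjusted p under 0.05 there were 4208. Differences of at least 2-fold were found for 93 of the higher and 195 of the lower genes, and the median size over all called genes was 0.82 on the log2 scale. Over all genes tested the median log2 ratio of F1 to mid-parent was -0.01.

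**Figure D1:**
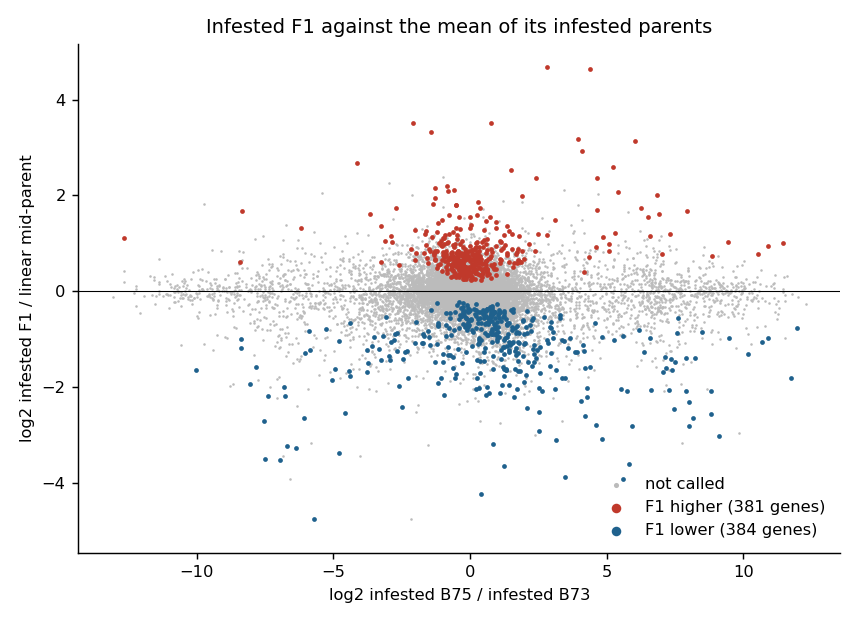
Each point is 1 of the 22572 genes tested, with the log2 ratio of infested B75 to infested B73 on the x axis and the log2 ratio of the infested F1 to the linear mean of both infested parents on the y axis. The 381 genes called higher and the 384 called lower lie on both sides of a narrow band of uncalled genes around 0, and they include genes whose parents hardly differ and genes whose parents differ strongly.

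The number of called genes rested on the number of libraries and on single ones. It was 449, 1215 and 494 without infested B73 replicate 5, 7 or 8, 466, 468 and 476 without infested B75 replicate 1, 3 or 4, and 370, 249 and 242 without infested F1 replicate 1, 2 or 3. It was 1227 without uninfested B73 replicate 6, which enters the estimate of the spread and the scaling but no group mean of infested leaves. With the infested libraries alone it was 1796, 818 higher and 978 lower. The balance of both directions moved with the filter on low counts, to 471 higher and 286 lower without a filter and to 455 and 284 with a minimum count of 50. Against the mean of the parents on the log2 scale, which by construction lies at or below the linear mean, 2891 genes (12.8%) were called, 2472 (11%) higher and 419 (1.86%) lower in the F1, so the size and the direction of this result depend on the scale on which the parents are averaged.

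Zm00001d031344 showed the largest called excess over the mid-parent among features with at least 5 CPM in some group and no overlap with the means of any B73 library with any B75 library. It had 12.5, 8.74, 15.8 and 7.17 CPM in the infested F1, against 0.168, 0.196, 0 and 0.222 CPM in infested B73 and 2.09, 4.25, 2.30 and 2.31 CPM in infested B75. Every F1 library thus lay above every parental library. The F1 mean was 7.66 times the mid-parent of 1.44 CPM, a log2 ratio of 2.92 ± 0.27 (SE, edgeR adjusted p = 4.5e-06). The uninfested F1 stood as far out, at 27.9 ± 2.91 CPM against a mid-parent of 3.33 CPM, a ratio of 8.40.

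Zm00001d010588 was next by the same rule and had almost no counts without mites. It had 5.13, 3.95, 7.37 and 4.29 CPM in the infested F1, against 0.0841, 0.718, 0.963 and 0.0740 CPM in infested B73 and 1.05, 1.75, 0.789 and 1.68 CPM in infested B75. The F1 libraries were again all above those of both parents, with a log2 ratio to the mid-parent of 2.53 ± 0.38 (edgeR adjusted p = 0.00208). In uninfested leaves it had 0 counts in the F1, 2 counts in B73 and 0 counts in B75. These are too few to place the uninfested F1 against its mid-parent. The change with mites, tested as described below, was not called for this feature (edgeR adjusted p = 0.565).

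Among the lower features Zm00001d006587 was the most distant from the mid-parent. It had 2.22, 1.82, 1.03 and 1.79 CPM in the infested F1, against 50.1, 25.8, 2.45 and 31.8 CPM in infested B73 and 43, 20.6, 34.3 and 50.2 CPM in infested B75. No F1 library reached a parental one, but B73 replicate 7 came close. The F1 stood at 0.0532 of the mid-parent of 32.3 CPM, a log2 ratio of -4.23 ± 1.02 (edgeR adjusted p = 0.0216). This call was lost on leaving out any of the F1 libraries, with adjusted p of 0.0572 to 0.0898. In uninfested leaves the feature varied from 14.4 to 606 CPM among the B73 libraries.

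Zm00001d014840 was high in infested B75 alone. It had 1.68, 0.380, 0.442 and 0.234 CPM in the infested F1, against 0.589, 0.326, 0.700 and 0.0740 CPM in infested B73 and 14.6, 3.44, 21.7 and 41.6 CPM in infested B75. The F1 overlapped B73 and lay below B75 in every library. The log2 ratio to the mid-parent was -3.90 ± 0.68 (edgeR adjusted p = 0.00168), and the call was lost against the log2-scale mid-parent (adjusted p = 0.0588). Without mites the means were 0.175 CPM in the F1, 0.294 CPM in B73 and 0.120 CPM in B75.

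Deviations from the mid-parent were found both where the parents differed and where they did not. Of the 765 genes, 545 had parents called different from each other and 220 did not. Among the 545, the F1 was displaced towards B73 at 352 and towards B75 at 193, and towards the higher parent at 231 and the lower parent at 314. The F1 mean lay above both parental means at 361 and below both at 199 of the 765, and between them at 205. Of those 205, 185 lay below the mid-parent. An F1 between its parents can exceed their linear mean by 2-fold at most, but can fall below it by more. Such a limit can by itself give more lower than higher calls here, and the skew was not tested against it.

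Where the parents were far apart, the F1 was spread around the middle with a lean towards the parent of lower expression. Infested B75 and B73 differed at 12065 of the 22572 genes (53.5%), and 6011 of these differed at least 2-fold. The parental libraries that chose the 6011 genes by their gap also set the scale below. Such a choice can by itself place an additive F1 nearer the lower parent. The lean was not tested against that. On a scale with B73 at -1 and B75 at 1, taken on linear CPM, the F1 had a median position of -0.0424 over the 6011 genes, with a middle range from -0.352 to 0.232 (25th to 75th percentile). The 4 F1 libraries had medians of -0.0718, -0.0605, -0.0266 and -0.0495. The F1 mean lay within the parental range at 92.0% of the genes, beyond B73 at 5.06% and beyond B75 at 2.91%.

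The lean depended on which parent was higher. At the 3048 genes where B75 was the higher parent the median position was -0.120, on the side of B73, and the libraries ranged from -0.170 to -0.128. At the 2963 genes where B73 was higher it was 0.0315, and the libraries ranged from -0.00878 to 0.0937. In uninfested leaves, where 5930 genes met the same rule, the corresponding medians were -0.0412 and 0.0945. The median of the infested F1 was nearer to B73 than that of the uninfested F1 in both classes, and this difference was not tested. The overall position moved to -0.0129 with library totals in place of scaling factors, to -0.0230 without the low-count filter, and to -0.0133 and -0.0211 without infested B73 replicate 7 or infested F1 replicate 1. It kept its sign in each of these.

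**Figure D2:**
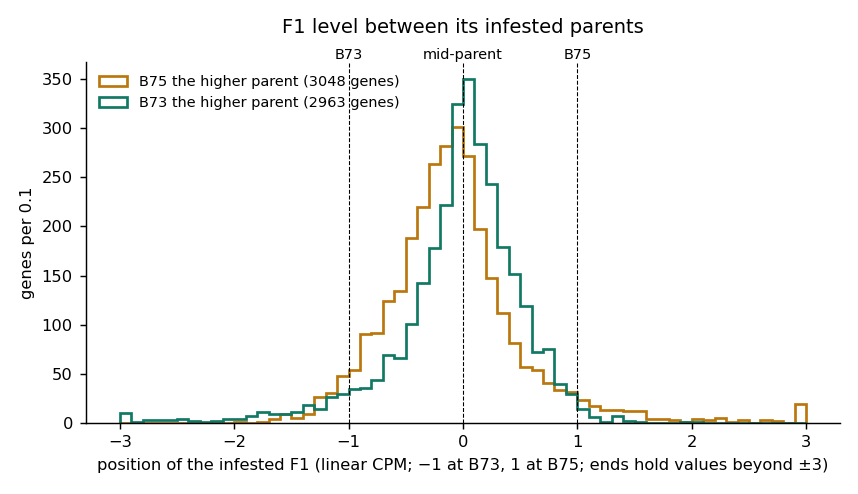
The x axis gives the position of the infested F1 on a linear CPM scale with B73 at -1, the mid-parent at 0 and B75 at 1, and the y axis the number of genes per bin. Lines show the 3048 genes with B75 as the higher parent and the 2963 with B73 as the higher parent, and the first are shifted to the left of the second.

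Against each parent on its own, the F1 differed from B75 at more genes than from B73. Against B73, 5823 genes (25.8%) were called, 3485 (15.4%) higher and 2338 (10.4%) lower in the F1. Against B75 there were 7706 (34.1%), 4018 (17.8%) higher and 3688 (16.3%) lower. Differences of at least 2-fold numbered 1832 higher and 829 lower against B73, and 1980 higher and 1274 lower against B75. Both comparisons share the F1 libraries, and a count in one is no test of its difference from the other.

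The calls can be read together with those between the parents. At 2927 genes the F1 was called different from both parents and lay between them, 1531 with B75 and 1396 with B73 as the higher parent. At 3813 genes with different parents the F1 was called different from B75 and not from B73, and at 2325 it was called different from B73 and not from B75. A missing call does not show that the F1 equalled that parent. At 2950 genes with different parents the F1 was called different from neither, and 9278 genes (41.1%) had no call in any of the 3 comparisons.

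The largest excesses over a single parent belonged to features with 0 counts in that parent. Zm00001d013872 had 22.0, 22.5, 30.6 and 21.7 CPM in the infested F1 and 0 counts in all libraries of infested B73, at least 421-fold higher when B73 is set to 3 counts over its 4 libraries, a limit that covers counting error only. Infested B75 had 26.2, 20.7, 22.6 and 26.7 CPM, so the F1 overlapped its B75 parent and stood at 2.02 times the mid-parent (edgeR adjusted p = 0.00723). Zm00001d011013 had 16.4, 19.5, 15.3 and 20 CPM in the infested F1 and 0 counts in infested B73, at least 310-fold higher. It had 43 ± 5.66 CPM in infested B75, and the F1 at 0.415 of that level was not called against the mid-parent (ratio 0.83, log2 ratio -0.27 ± 0.15, edgeR adjusted p = 0.357).

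Against B73 the largest falls were in features with uneven parental libraries. Zm00001d007285, a member of the mite-induced genes described below, had 0.459, 0.684, 1.25 and 1.17 CPM in the infested F1, against 7.82, 20.2, 46.1 and 6.66 CPM in infested B73. The groups did not overlap, with a log2 fold change of -4.48 ± 0.56 (edgeR adjusted p = 3.3e-06). It had 0.104 ± 0.0379 CPM in infested B75, and the F1 was at 0.0878 of the mid-parent. Zm00001d006587 fell by 4.00 ± 1.10 on the log2 scale against B73 (edgeR adjusted p = 0.00622).

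Against B75 the largest excesses were again in features with 0 counts in that parent. A gene that B75 does not express and one whose B75 reads are lost on the B73 genome cannot be told apart here. Zm00001d030670, also mite-induced, had 66.2, 70.2, 60.7 and 42.2 CPM in the infested F1, against 47.9, 62.9, 69.4 and 42.3 CPM in infested B73 and 0 counts in infested B75. The F1 was at least 1150-fold higher than B75, overlapped B73 and reached 2.15 times the mid-parent (edgeR adjusted p = 0.00389). The uninfested F1 had 1 count of it in 4 libraries, uninfested B73 had 2 counts and uninfested B75 had 0. Zm00001d013857 had 37, 30, 39.6 and 39 CPM in the infested F1, against 55.1, 44.6, 58.5 and 60.2 CPM in infested B73 and 0 counts in infested B75, at least 703-fold higher than B75. It was 1.33 times the mid-parent, a difference that was not called (edgeR adjusted p = 0.202). The largest falls against B75 were those of Zm00001d014840 (log2 fold change -4.87 ± 0.68, edgeR adjusted p = 4.0e-06) and Zm00001d006587 (-4.43 ± 1.09, edgeR adjusted p = 0.00234).

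Few genes of the infested F1 were called beyond both parents. In all, 175 genes (0.775%) were called higher than B73 and higher than B75, and 83 (0.368%) were called lower than both. The 175 had a median log2 excess of 0.656 over the nearer parent and F1 levels from 0.571 to 3940 CPM with a median of 33.7 CPM, and 36 exceeded the nearer parent at least 2-fold. The 83 had a median log2 difference of -0.869 from the nearer parent, and 35 lay at least 2-fold below it. The parents were not called different at 130 of the 175 and at 78 of the 83. Against the mid-parent, 162 of the 175 were called higher and 56 of the 83 lower.

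These numbers moved with single libraries and with the fit. The 175 became 105 without infested F1 replicate 2 and 298 with the infested libraries alone. The 83 became 50, 50, 155 and 49 without infested B73 replicate 5, 6, 7 or 8, 51 and 48 without infested B75 replicate 3 or 4, 41, 29 and 54 without infested F1 replicate 2, 3 or 4, and 128 without uninfested B73 replicate 6. They became 190 with the infested libraries alone, 134 with DESeq2, 52 without a filter on low counts and 54 with a minimum count of 50. Zm00001d031344 led the genes above both parents, 4.04-fold above B75 (log2 fold change 2.00 ± 0.27, edgeR adjusted p = 5.6e-06), followed by Zm00001d010588, 3.94-fold above B75. Zm00001d006587 led those below both, followed by Zm00001d046919. Zm00001d046919 had 4.13, 3.57, 3.32 and 1.87 CPM in the infested F1, against 16.5, 9.40, 6.83 and 13.5 CPM in infested B73 and 8.86, 5.69, 23.7 and 19.7 CPM in infested B75. The F1 libraries were all lower than those of both parents, with log2 fold changes of -1.84 ± 0.51 against B73 and -2.16 ± 0.50 against B75 (edgeR adjusted p = 0.00940 and 0.00212).

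**Figure D3:**
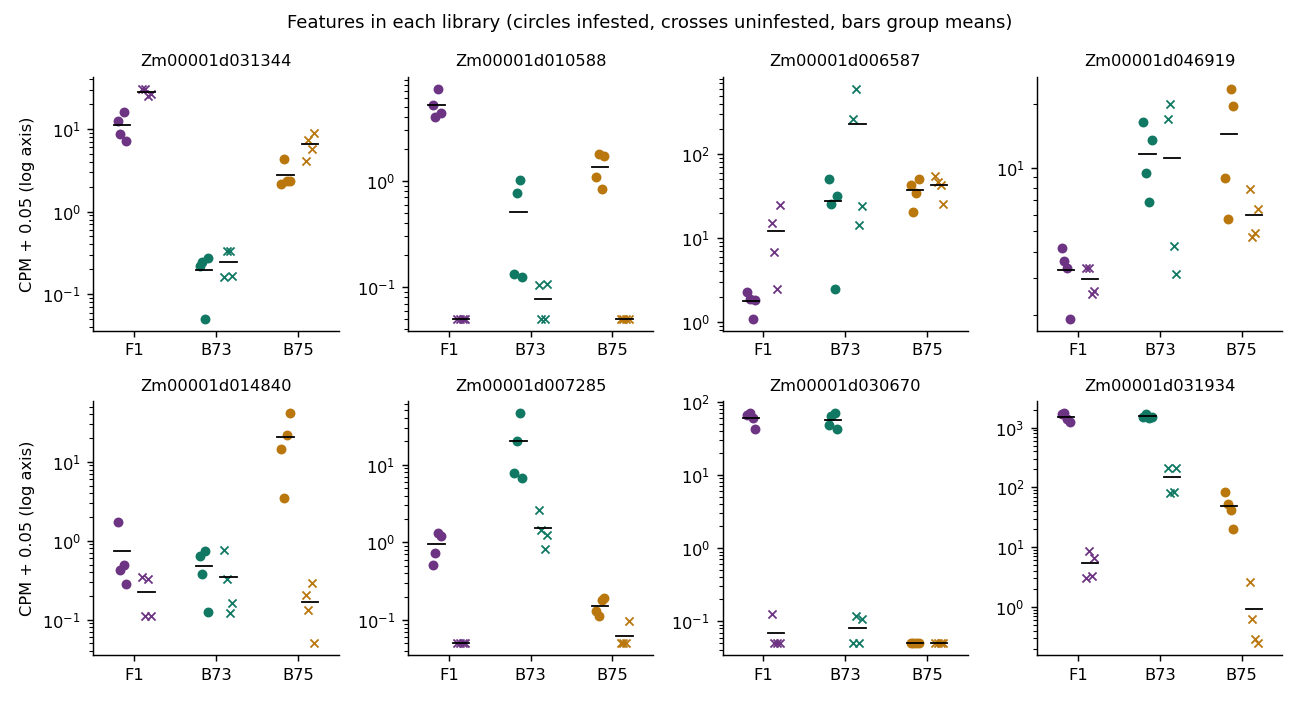
CPM + 0.05 on a log axis in each library for 8 features, with the F1 left of its parents, circles for infested and crosses for uninfested leaves, and bars at the group means. Zm00001d031344 and Zm00001d010588 lie above both infested parents and Zm00001d006587 and Zm00001d046919 below both. Zm00001d014840 and Zm00001d007285 are high in 1 infested parent and low in the infested F1. Zm00001d030670 and Zm00001d031934 are high in the infested F1 and infested B73.

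Genes read in only 1 parent were set against the level of that parent. Whether the other copy was silent or unread in the F1 was not tested. They were chosen by a mean of 5 CPM or more in the infested parent that reads the gene and by under 3 counts over the 8 libraries of the other parent, so the F1 took no part in the choice. At the 124 genes read in B73 only, the infested F1 stood at a median of 0.498 of the B73 level, with library medians of 0.481, 0.446, 0.496 and 0.566. At the 141 genes read in B75 only, it stood at 0.485 of the B75 level, with library medians of 0.443, 0.441, 0.494 and 0.520. All library medians of both classes lay from 0.441 to 0.566, where additive expression gives 0.5. The infested parental level that chose the genes also divided the F1 level. Such a choice can by itself lower the ratio, and this was not tested. The uninfested F1 stood at 0.515 over the 115 and 0.432 over the 127 of these genes with at least 5 CPM in that uninfested parent.

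Single genes departed from this in few cases. The ratio lay between 0.25 and 0.75 at 93.55% of the genes read in B73 only and at 90.8% of those read in B75 only. It ranged from 0.160 to 1.78 for B73 and from 0.0639 to 1.03 for B75, and exceeded the level of the parent at 2 genes of each class. None of the genes of either class was without F1 reads at the limit of 3 counts over the 4 infested F1 libraries. Against the mid-parent, 1 gene read in B73 only was called higher and 1 lower, 1.61% of the class, and 6 genes read in B75 only were called higher and 5 lower, 7.80% of the class, where 3.39% of all genes were called.

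**Figure D4:**
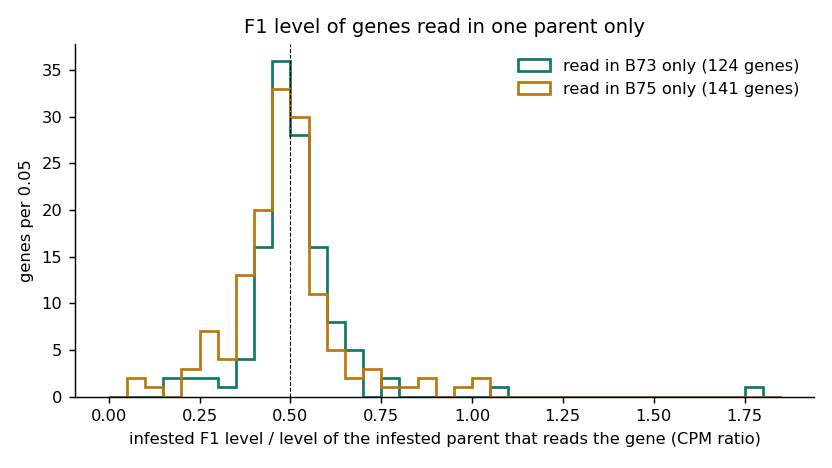
The x axis gives the level of the infested F1 divided by that of the infested parent that reads the gene, and the y axis the number of genes per bin, for 124 genes read in B73 only and 141 read in B75 only. Both classes peak near the dashed line at 0.5, with medians of 0.498 and 0.485.

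The genes that mites induce stood above the mid-parent in the infested F1 more often than genes at large. The list holds the genes that rose at least 2-fold with mites in B73 replicates 1 to 4, plants of the other experiment whose libraries enter no comparison with this F1, and 1729 of its 1784 members were tested here. Of these, 138 (7.98%) were called higher and 37 (2.14%) lower than the mid-parent, where 1.69% and 1.70% of all genes were. The median log2 ratio of the F1 to the mid-parent was 0.167 over the list and -0.01 over all genes, and 64.0% of the members had a ratio above 1 against 47% of all genes. Above both parents stood 69 members (3.99%, against 0.775% of all genes), and below both 9 (0.521%, against 0.368%). These shares are descriptions of the list and no test was made of them.

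The parents differed over this list, and the F1 was called against B75 at more members than against B73. Infested B75 was called higher than infested B73 at 275 members (15.9%, against 27.6% of all genes) and lower at 803 (46.4%, against 25.8%). Against infested B75, the F1 was called higher at 694 members (40.1%, against 17.8% of all genes) and lower at 99 (5.73%, against 16.3%), with a median log2 fold change of 0.552. Against infested B73, it was called higher at 272 (15.7%), a share near the 15.4% of all genes, and lower at 233 (13.5%, against 10.4%), with a median of -0.03. The list was chosen on B73 plants, so it favours genes that respond in that parent.

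Library by library, the list was uneven within the F1. The median log2 ratio of a library to the mid-parent was 0.30, 0.24, 0.05 and -0.03 in infested F1 replicates 1 to 4. It was 0.07, 0.36, 0.41 and -0.06 in infested B73 replicates 5 to 8, and -0.56, -0.24, -0.36 and -0.28 in infested B75. The F1 overlapped B73, and all F1 libraries lay above all B75 libraries. The count of 138 became 90 without infested B73 replicate 8, 91 without infested B75 replicate 1, and 71, 55 and 73 without infested F1 replicate 1, 2 or 3. The count of 37 became 24 and 17 without infested B73 replicate 5 or 6, 20, 22 and 19 without infested B75 replicate 1, 3 or 4, and 22, 10, 8 and 16 without infested F1 replicates 1 to 4 in turn. With the infested libraries alone the counts were 283 and 64. The higher calls outnumbered the lower ones in each of the 32 fits that gave both counts, which did not include the log2-scale mid-parent or DESeq2.

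The mite-repressed genes were a short list, and those called against the mid-parent were all lower in the infested F1. Of the 181 tested members, chosen by a fall of at least 2-fold in the same B73 plants, 0 were called higher and 9 (4.97%) lower than the mid-parent, where 1.69% and 1.70% of all genes were. Their median log2 ratio was -0.188, and it was -0.265 and -0.135 without infested B73 replicate 7 or 8. The library medians were -0.18, -0.13, -0.26 and -0.18 in the infested F1, from -0.41 to 0.03 in infested B73 and from -0.19 to 0.05 in infested B75. The groups overlapped.

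**Figure D5:**
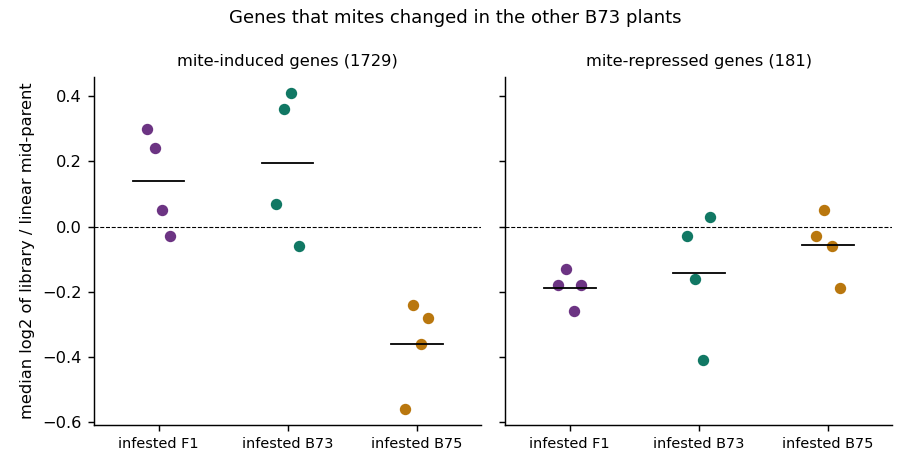
Each point is 1 infested library, and the y axis is the median over the list of the log2 ratio of that library to the linear mid-parent, with bars at the group means, for 1729 mite-induced genes on the left and 181 mite-repressed genes on the right. The F1 libraries lie at -0.03 to 0.30 for induced genes, above all B75 libraries and among those of B73, and at -0.26 to -0.13 for repressed genes.

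Part of the deviation of the F1 was present without mites. The uninfested F1 was called against its own mid-parent at 1962 genes (8.69%), 1012 (4.48%) higher and 950 (4.21%) lower. Of the 381 genes called higher in infested leaves 92 (24.1%) were also called higher in uninfested leaves, which is 9.09% of the 1012, and 6 were called lower there. Of the 384 called lower 110 (28.6%) were called lower in both, 11.6% of the 950, and 2 were called higher. Infested and uninfested libraries are separate plants. At 78.5% of the genes called higher and 91.9% of those called lower, the uninfested F1 lay on the same side of its mid-parent. Over all genes tested its median log2 ratio to the mid-parent was -0.0012, so genes at large lay about evenly on both sides. Of the 175 genes above both parents in infested leaves 30 were also above both in uninfested leaves, where 417 genes (1.85%) were, and of the 83 below both 5 were, where 207 genes (0.917%) were.

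Whether the F1 deviated differently with mites was tested directly, as a change in the ratio of F1 to mid-parent between infested and uninfested leaves. The ratio changed at 50 genes (0.222%), being higher in infested leaves at 34 (0.151%) and lower there at 16 (0.0709%), and 2347 genes had an unadjusted p under 0.05. The count was 127 without uninfested B73 replicate 6, 31 without infested B73 replicate 8, 28 without uninfested F1 replicate 4, and 33 and 29 without infested F1 replicate 2 or 3. Of the 34 genes, 25 belonged to the mite-induced list, which makes up 7.66% of all genes tested, and of the 16 genes 0 did. At the 34, the median log2 ratio of F1 to mid-parent was 0.598 in infested and -1.21 in uninfested leaves. A gap in this direction follows from the choice, since the change in this ratio chose the 34. Uninfested B75 was called lower than uninfested B73 at 30 of them, and the uninfested F1 was called lower than its mid-parent at 24. Over the whole mite-induced list the uninfested F1 was called lower than its mid-parent at 187 members (10.8%, against 4.21% of all genes) and higher at 67 (3.88%, against 4.48%), with a median of -0.09.

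Zm00001d031934 is the clearest of these in level. In infested leaves it had 1721, 1763, 1422 and 1224 CPM in the F1, against 1529, 1714, 1475 and 1509 CPM in B73 and 84.5, 52.0, 42.2 and 19.8 CPM in B75. In uninfested leaves it had 2.94, 8.61, 3.24 and 6.45 CPM in the F1, against 214, 80.2, 84.3 and 208 CPM in B73 and 2.53, 0.571, 0.239 and 0.194 CPM in B75. The F1 thus overlapped B73 with mites and lay below every B73 library without them. The ratio to the mid-parent was 1.91 in infested and 0.0721 in uninfested leaves, a log2 difference of 4.71 ± 0.62 (edgeR adjusted p = 0.00146).

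Zm00001d037909, the other feature with the largest rise of this ratio, had the same order of groups. It had 45.6 ± 13.5 CPM in the infested F1, against 67.5 ± 17.6 CPM in infested B73 and 8.69 ± 2.09 CPM in infested B75 (n = 4 each). In uninfested leaves it had 4 counts in all 4 F1 libraries, against 4.56 ± 3.17 CPM in B73 and 1 count in B75. The log2 difference was 5.23 ± 1.37 (edgeR adjusted p = 0.00937). Both features are members of the mite-induced list.

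The features with the largest fall of the ratio were high in infested B75. Zm00001d020531 had 16.1, 17.5, 16.9 and 16.4 CPM in the infested F1, against 4.85 ± 0.617 CPM in infested B73 and 36.1 ± 9.48 CPM in infested B75. In uninfested leaves it had 13.6, 21.1, 21.9 and 14.9 CPM in the F1, against 5.13 ± 1.57 CPM in B73 and 7.83 ± 0.713 CPM in B75. The F1 lay between its infested parents at 0.817 of their mean and above both uninfested parents at 2.76 times theirs (log2 difference -1.75 ± 0.25, edgeR adjusted p = 0.00281). Zm00001d013255 had 3.8 ± 0.291 CPM in the infested F1, 0.851 of the mid-parent, and 4.47 ± 1.67 CPM in the uninfested F1, 3.32 times the mid-parent (log2 difference -1.96 ± 0.35, edgeR adjusted p = 0.0129).

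Of the microRNA precursors in the table, 2 passed the low-count filter, and the infested F1 was called against its parents at neither. zma-MIR168a, whose microRNA acts on transcripts of the ARGONAUTE protein that carries microRNAs, had 5.51, 5.09, 4.28 and 4.13 CPM in the infested F1, against 4.46, 4.57, 3.33 and 4.00 CPM in infested B73 and 3.46, 3.38, 6.11 and 3.22 CPM in infested B75. The groups overlapped (log2 ratio to the mid-parent 0.22 ± 0.20, edgeR adjusted p = 0.620). zma-MIR156d, of the family that holds back SPL transcription factors in young plants, had 0.849 ± 0.340 CPM in the infested F1, against 0.508 ± 0.154 CPM in infested B73 and 0.466 ± 0.198 CPM in infested B75 (0.79 ± 0.35, edgeR adjusted p = 0.219). Depth limits the second comparison, with 27 counts of zma-MIR156d over the 4 libraries of each infested parent. In bulk leaf, fewer cells of a type and less RNA per cell cannot be told apart for any of these values.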

How the data were processed

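Libraries were made with a strand-marking poly(A) kit, per the labels' protocols. The authors deposited whole-number counts per gene feature and library. STAR 2.5.3a, HTSeq 0.9.1 and the build B73 RefGen_v4 are named in the submitters' processing notes, and the sources used here do not give counting options or filters. Of 46272 features, 0 of 44146 Zm identifiers and 153 of 154 microRNA precursors were named by the reference table used here, which is of a later assembly, so the lists fixed by gene symbol gave no value. The 5 summary lines, mostly reads with several alignments, held 12.7% to 19.7% of the reads in the 12 infested libraries and were left out of every total and test, so genes with near-identical copies are uncertain.

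All 24 libraries of the B75 experiment were fitted as 6 group means with edgeR 4.0.16 in R 4.3.3 (filterByExpr with a minimum count of 10, TMM scaling, quasi-likelihood tests, Benjamini-Hochberg adjustment over 22572 genes). For the linear mid-parent, the null model held the F1 mean at the mean of the parental means, and for the change with mites it held 1 ratio of F1 to mid-parent in both conditions. Both nulls were tested on data simulated with the F1 at the linear mid-parent, apart from 200 changed genes. The changed genes were drawn from those with a mean over 1 CPM, and the libraries were simulated as independent. Recovery at lower levels, or with libraries that vary together, was not tested. Changes of 1.5, 2 and 4-fold were recovered against the mid-parent at 62.7%, 71.6% and 100% of genes. For the change with mites these were 19.4%, 55.2% and 90.9%, so smaller changes were often missed. Of 165 calls against the mid-parent 9 were false. Against the log2-scale mid-parent 2111 genes were called, 1932 of them simulated at the linear mid-parent. Fold changes carry edgeR's default prior count. Features were named by the 2 largest changes in each direction of a comparison, at 5 CPM or more in the highest group and with no overlap of libraries. For the change with mites, the F1 libraries divided by the mid-parent had not to overlap. Precursors were added to these. The comparisons, lists and rules were chosen with earlier results of these data known. No 2 libraries of a group looked like 1 library deposited more than once (lowest chi-square per gene 5.40).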

Additional observations from a re-analysis of the deposited data

Results flagged for a closer look

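In 6 of the 76 groups of 4 libraries tested among the named features, 1 library stood apart from the rest of its group, where chance gives about 1 in 20. These were infested F1 replicate 3 for Zm00001d013872 (30.6 CPM, the others at 21.7 to 22.5 CPM), infested F1 replicate 1 for Zm00001d014840 (1.68 CPM, the others at 0.234 to 0.442 CPM), infested B75 replicate 2 for Zm00001d031344 (4.25 CPM, the others at 2.09 to 2.31 CPM) and infested B75 replicate 3 for zma-MIR168a (6.11 CPM, the others at 3.22 to 3.46 CPM). In uninfested leaves they were B75 replicate 1 for Zm00001d031934 (2.53 CPM, the others at 0.194 to 0.571 CPM) and B73 replicate 6 for Zm00001d020531 (2.80 CPM, the others at 5.58 to 6.08 CPM). Without that library, Zm00001d013872 was still called against B73, Zm00001d014840 against the mid-parent and B75, Zm00001d031344 against the mid-parent and each parent, and Zm00001d031934 and Zm00001d020531 for the change with mites. The call of Zm00001d013872 against the mid-parent was not refitted without infested F1 replicate 3.

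The deviation of the F1 from its mid-parent differed between infested and uninfested leaves at 4 named features, by the test of the difference itself. They were named as the largest changes called by that same test, so that they pass it follows from the choice. The log2 difference was 5.23 for Zm00001d037909, 4.71 for Zm00001d031934, -1.96 for Zm00001d013255 and -1.75 for Zm00001d020531. All 4 calls were kept in each of the 30 alternative fits that gave this test, with edgeR adjusted p of 0.000288 to 0.0442.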

How the results depend on the processing

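Of 700 alternative values for 22 named results, 695 kept direction and call, 5 lost the call and 0 reversed. The named results were chosen as the largest calls without overlap of libraries, and some features stand for several of the 22. That most calls were kept is therefore in part given by the choice. The number of genes called against the mid-parent was 2891 with the parents averaged on the log2 scale, 3217 with DESeq2 on that scale and 1796 with the infested libraries alone, and ranged from 242 to 1227 on leaving out 1 library. With the infested libraries alone, 298 genes lay above both parents, 190 lay below both, and 283 mite-induced genes were higher and 64 lower than the mid-parent. Below both parents there were 52 genes without a filter, 54 with a minimum count of 50 and 134 with DESeq2. The position of the F1 was -0.0129 with library totals and -0.0230 without a filter. On leaving out 1 library, the genes above both parents numbered 105 to 213 and those below both 29 to 155, the deviations that changed with mites 28 to 127, and the mite-induced genes higher than the mid-parent 55 to 191 and lower 8 to 44. The position ranged from -0.0485 to -0.0133 and the median of mite-repressed genes from -0.265 to -0.135. Library numbers run in blocks of 6. Same-numbered infested libraries deviated together, with a correlation over 0.1, in 8 of 12 pairs (median correlation 0.186). Infested libraries with different numbers did so in 5 of 36 pairs (median correlation -0.0517). A library correlated best with its own number in 16 of 24 cases, a hint of pairing from the data. Not every same-numbered pair did so, and the labels do not say that a number marks a block. The numbers were therefore not taken to pair the libraries, and the main fit ignores any such pairing. With the replicate block, 1197 genes were called against the mid-parent and 85 for the change with mites. The causes of these shifts were not tested. Depth limits the low features, where a group of 4 libraries at 0 allows up to 3 counts.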

Other observations

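The share of genes called higher than the mid-parent was largest among the most expressed genes, but did not rise evenly with level. Among the 5643 genes with the highest mean over the 12 infested libraries, 157 (2.78%) were called higher and 100 (1.77%) lower in the F1. Among the 5643 with the lowest mean these were 60 (1.06%) and 92 (1.63%). Among the next 5643 upwards they were 96 (1.70%) and 90 (1.59%), and among the 5643 above those 68 (1.21%) and 102 (1.81%). Of the features other than Zm genes, 124 with ENSRNA and 15 with GRMZM5G identifiers were tested, of which 1 and 0 were called higher and 1 and 0 lower than the mid-parent.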
